A study of Mus musculus with 71 samples.

Results

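The mutant libraries of day 7 are 8 of the 71 libraries in a series on chromatin accessibility of mouse ventral spinal cord progenitors made from embryonic stem cells. They were chosen by their labels: genotype MUT, day 7, NFIAn fraction, with 3 libraries of p0-p1, 3 of p2 and 2 of pMN, and the 3 populations were compared in pairs. The third library labelled MUT pMN on day 7 was left out because its reads went with the other genotype. Embryonic stem cells were plated with bFGF, then given the GSK3 inhibitor CHIR99021, then retinoic acid with Smoothened agonist (SAG), an activator of the Sonic hedgehog pathway, and then SAG alone. Cells of all groups received these agents, so no group lacked SAG. Accessibility was measured with CaTS-ATAC, in which fixed cells are treated with the transposase Tn5, stained for intracellular proteins and sorted before sequencing. The antibodies named in the labels include SOX2, a protein of neural progenitors, NKX6.1 and OLIG2. Which gene is mutated is not stated in the labels, nor whether the MUT line is 1 clone. The groups set beside the day 7 mutant libraries were 8 WT libraries of day 7 (3 p0-p1, 3 p2 and 2 pMN, NFIAn), and MUT libraries of day 5 (9), day 9 (6) and day 11 (9), all NFIAn.

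In the ventral neural tube, Sonic hedgehog spreads from the notochord and floor plate and sets up bands of progenitors with different transcription factors. The p0 and p1 domains lie farthest from the source among those sorted here and give rise to V0 and V1 interneurons. The p2 domain gives rise to V2 interneurons and carries NKX6.1 without OLIG2. The pMN domain carries both NKX6.1 and OLIG2, and gives rise to motor neurons first and to oligodendrocyte precursors later. NFIA is a transcription factor of older progenitors that is tied to the onset of gliogenesis, and NFIAn is the fraction without its staining as the label reads. An ATAC-seq interval with many reads is open to the transposase, as active enhancers and promoters usually are.

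The table numbers its 155738 intervals and pairs them with neither positions nor gene names, so the populations could not be checked against marker genes, and no interval can be placed in or near a gene here. Each value is a normalised read count, that is, reads divided by 1 size factor per library. The 8 libraries held 20034731 to 29539232 recovered reads, and the most read 1% of intervals took 16.8% to 17.5% of them. The pooled standard deviation between replicates was 0.31 for p0-p1, 0.31 for p2 and 0.29 for pMN on the log2 scale. The labels do not say whether replicates were separate cultures, so p-values measure only the spread between these libraries. Populations were sorted in bulk, so fewer open cells and less opening per cell cannot be told apart.

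A run of 5 neighbouring intervals, picked after its values were seen, separated the genotypes. Interval_143053 to Interval_143057 held 0 reads in each of the 8 mutant libraries and 214 to 519 in the 8 WT libraries of day 7. The left-out library labelled MUT pMN replicate 3 held 213 reads there, and the library labelled WT pMN replicate 3 held 0, so neither entered any group. As a population, the left-out library stood with pMN: over the intervals that differ among populations, its root mean square distance from the mean of pMN was 0.45, against 1.00 from p2 and 1.38 from p0-p1 (log2). Each of the 8 libraries lay nearest the mean of its own population, at 0.34 to 0.44, with 0.76 to 1.48 to the other populations. For these 8 the nearness is no test. A library takes part in its own mean, and the intervals were called on differences among the same 8 libraries.

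Populations accounted for 58.9% of the sum of squares over the 8 libraries and replicates for 41.1%. Grouping 8 libraries gives populations some share even where they do not differ. On the first principal component, with 43.7% of the variance, p0-p1 scored -122.0 to -94.9, p2 -3.43 to 18.8, and pMN 139.5 and 150.8. The populations did not overlap on it, and p2 stood between the other populations. On the second component, with 16.5%, p2 scored 20.9, 72.4 and 110.6 in order of replicate number. In the same order p0-p1 scored -71.5, -16.5 and -29.2, and pMN -63.8 and -22.8. Here p2 stood at one end, while p0-p1 and pMN overlapped. Replicate 1 had the lowest score of each population, so this component mixes population with replicate number.

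**Figure D1:**
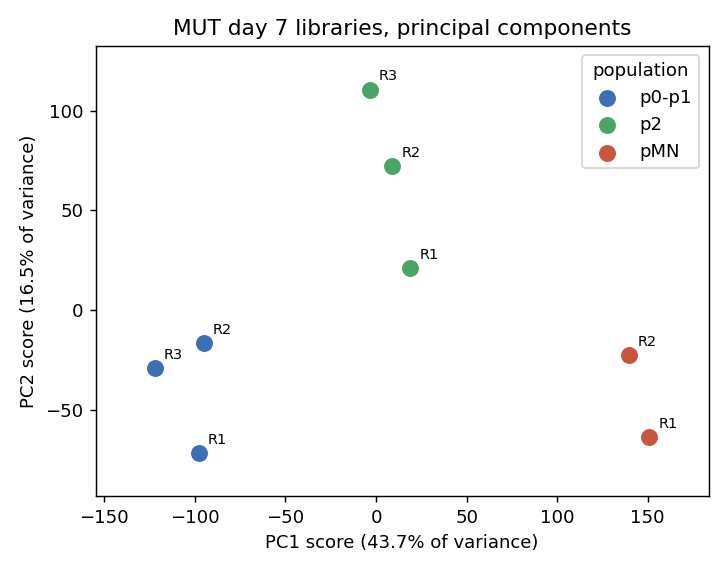
Scores of the 8 MUT day 7 libraries on the first (43.7%) and second (16.5%) principal component of log2(value + 5); each point is 1 library, coloured by population. The first component orders p0-p1, p2 and pMN. The second sets p2 apart from the other populations, with replicate 1 lowest in each population.

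The widest of the 3 differences was between pMN, the domain of motor neuron progenitors, and p0-p1. A call needed a limma p, adjusted by Benjamini-Hochberg, below 0.05 and a size of 1 or more on the log2(value + 5) scale, which understates the change of intervals with few reads. By this rule 17478 of 155734 tested intervals (11.2%) differed, 8751 (5.62%) higher in pMN and 8727 (5.6%) higher in p0-p1. The median change was 1.34 among those higher in pMN and -1.28 among those lower. Changes past 2 on the log2 scale were found in 1048 higher and 636 lower intervals, and changes past 3 in 71 and 31. A pseudocount of 20 gave 4496 higher and 3121 lower, and a minimum mean of 30 gave 5148 and 4020, so the near balance of directions depends on how low values enter. The libraries of the 2 groups did not overlap in 17406 of the 17478 called intervals, against 44.2% of all intervals. The calls rest on the same libraries, so the lack of overlap is a description.

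Interval_10132 had the largest rise in pMN over p0-p1 by the naming rule. Its normalised reads were 6.65, 4.25 and 4.79 for p0-p1, 43.4, 26.8 and 3.20 for p2, and 283.3 and 236.4 in pMN. Both pMN libraries stood above all others, and p2 ran from the level of p0-p1 to several times that. The difference of pMN from p0-p1 was 4.70 (SE 0.45, log2; limma adjusted p = 4.64e-12). Interval_2440 followed, with 7.76, 7.43 and 3.60 for p0-p1, 26.3, 16.5 and 6.41 for p2, and 299 and 233.9 in pMN. The pMN libraries were again alone at the top, and p0-p1 and p2 overlapped. Its difference was 4.60 (SE 0.47; limma adjusted p = 2.66e-11).

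In the other direction, Interval_30419 had 113.0, 121.0 and 97.1 normalised reads in p0-p1, 29.7, 17.6 and 34.2 for p2, and 2.23 and 5.01 in pMN. The 3 populations did not overlap, and their order was that of the first principal component. The difference was -3.76 (SE 0.33; limma adjusted p = 1.45e-13). Interval_625 showed the same order at a higher level, with 297.0, 346.1 and 316.4 for p0-p1, 96.0, 115.6 and 148.5 for p2, and 17.9 and 28.4 in pMN. No library of one population reached the range of another. The difference was -3.55 (SE 0.28; limma adjusted p = 9.36e-15).

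Between pMN and p2, which both carry NKX6.1, 7354 intervals (4.72%) were called, 3554 (2.28%) higher in pMN and 3800 (2.44%) higher in p2. The median changes were 1.30 and -1.23. Large changes were mostly toward pMN: 313 intervals were higher in pMN by at least 2 on the log2 scale and 89 were lower, and at 3 or more the counts were 10 and 0. The libraries did not overlap in 7317 of the called intervals, against 33.9% of all intervals, again a description. Which direction was the more frequent depended on the setting: a pseudocount of 20 gave 1609 higher and 1127 lower, the replicate block 3890 and 3450, and equal library totals 3141 and 4324. A minimum mean of 30 gave 1662 and 2007. Without pMN replicate 1 the count was 4296, with the lone pMN library assumed to vary like the other groups.

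Interval_2440, described above, had the largest rise of pMN over p2, at 3.77 (SE 0.47; limma adjusted p = 6.77e-08). Interval_11872 had 8.87, 8.49 and 9.59 normalised reads in p0-p1, 25.2, 16.5 and 10.7 for p2, and 270.0 and 248.1 in pMN. The pMN libraries stood more than 200 above every other library. The change was 3.61 (SE 0.40; limma adjusted p = 3.88e-09). Interval_39600 was low in pMN alone, with 131.9, 178.4 and 130.6 for p0-p1, 107.4, 165.2 and 152.7 for p2, and 12.3 and 15.0 in pMN. Here p0-p1 and p2 overlapped. The difference of pMN from p2 was -2.96 (SE 0.25; limma adjusted p = 1.78e-12). Interval_88500 had 48.8, 67.9 and 52.7 for p0-p1, 105.2, 131.1 and 193.3 for p2, and 17.9 and 15.0 in pMN. Its 3 populations did not overlap, with p2 at the top. The difference of pMN from p2 was -2.75 (SE 0.26; limma adjusted p = 8.85e-11).

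The p2 and p0-p1 populations were the closest pair. Of the tested intervals 4365 (2.8%) were called, 2676 (1.72%) higher in p2 and 1689 (1.08%) lower, with median changes of 1.18 and -1.18. A pseudocount of 20 gave 754 higher and 383 lower, and a minimum mean of 30 gave 1574 and 607. Changes of at least 2 were found in 46 higher and 49 lower intervals. The libraries did not overlap in 4261 of the called intervals, against 23.2% of all intervals, again a description. The root mean square difference over all intervals, with the replicate variance subtracted, was 0.33 for this pair, 0.38 for pMN and p2, and 0.57 for pMN and p0-p1 (log2).

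Interval_56322 had 33.3, 20.2 and 13.2 normalised reads in p0-p1, 262.9, 187.9 and 206.1 for p2, and 284.5 and 232.2 in pMN. The p2 and pMN libraries were high and overlapped, and p0-p1 was low. The difference of p2 from p0-p1 was 3.09 (SE 0.23; limma adjusted p = 1.78e-15). Interval_15979 had 18.8, 21.2 and 4.79 for p0-p1, 121.2, 100.1 and 110.0 for p2, and 273.3 and 150.4 in pMN. The populations did not overlap, and p2 stood between the others. Its difference was 2.65 (SE 0.26; limma adjusted p = 2.85e-11).

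Of the intervals lower in p2 than in p0-p1, Interval_70689 had 76.5, 59.5 and 92.3 for p0-p1, 3.43, 6.19 and 4.27 for p2, and 6.69 and 3.34 in pMN. Only p0-p1 was open there, and p2 and pMN overlapped. The difference was -3.06 (SE 0.29; limma adjusted p = 1.45e-11). Interval_145463 had 491.0, 555.2 and 596.8 for p0-p1, 60.6, 68.1 and 68.4 for p2, and 44.6 and 45.9 in pMN. It was the named interval with the most reads, and p0-p1 exceeded every other library by more than 400. The difference of p2 from p0-p1 was -2.96 (SE 0.23; limma adjusted p = 1.71e-14).

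**Figure D2:**
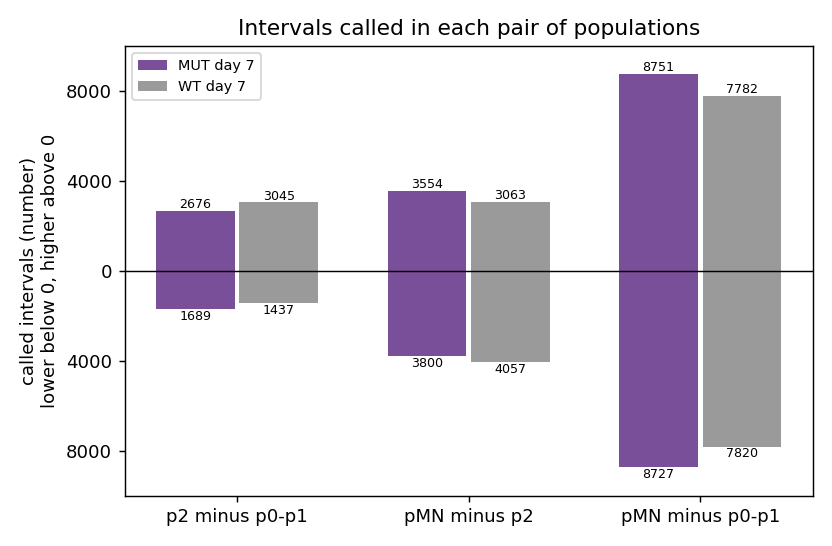
Number of intervals called by limma in each pair of populations on day 7, higher above 0 and lower below 0, for MUT and WT. In MUT the pair pMN and p0-p1 gives 8751 and 8727, against 3554 and 3800 for pMN and p2 and 2676 and 1689 for p2 and p0-p1.

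Called intervals were of middling level. The median of the mean value was 37.5 among those higher in pMN than p2 and 34.2 among those lower, against 28.9 for all tested. For pMN and p0-p1 it was 43.7 and 33.1, against 29.3. For p2 and p0-p1 it was 39.3 and 25.7, against 29.2. By quartile of level, the share that differed among the 3 populations was 7.10%, 15.4%, 17.9% and 11.3% from the lowest to the highest (limma F-test, calls as below), with the highest shares in the middle quartiles; the part of depth in the lowest quartile was not tested.

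Called intervals that were closed in 1 population and open in another were few by the limits used here. An interval was taken as open in a population at a mean of at least 50 normalised reads and as closed under 10. Of the 8751 intervals higher in pMN than p0-p1, 171 (1.95%) were closed in p0-p1 and open in pMN, and 103 (1.18%) of the 8727 lower ones were open in p0-p1 and closed in pMN. Between pMN and p2 there were 48 open in pMN and closed in p2, and 14 the other way round. Between p2 and p0-p1 there were 6 open in p2 and closed in p0-p1, and 13 the other way round. In all other called intervals the pair was not at opposite ends of this scale.

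Over the 171 intervals the mean value was 6.86, 7.20 and 7.42 in the p0-p1 libraries, 14.9, 16.5 and 17.4 for p2, and 68.7 and 79.1 in pMN. The p2 libraries stood between the groups, nearer p0-p1: 39 of the 171 intervals were closed in p2, 128 lay between the limits and 4 were open. Over the 103 intervals the mean was 56.8, 64.7 and 73.4 for p0-p1, 20.2, 26.0 and 33.5 for p2, and 6.52 and 8.49 in pMN. In p2, 11 of these were closed, 88 lay between and 4 were open. The p0-p1 and pMN values chose these lists and are a description. The p2 values did not enter the difference or the limits, but they add to the estimate of spread that all groups share.

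With all 3 populations in 1 test, 20148 intervals (12.9%) differed by the moderated F-test of limma, their means spanning 1 or more on the log2 scale. pMN was the highest population in 8705 (43.2%) of them and p0-p1 in 8298 (41.2%). p2 was highest in 3145 (15.6%) and lowest in 1665 (8.26%). It lay in the middle in 15338 (76.1%), split evenly between the order p0-p1, p2, pMN from high to low (7697) and the reverse (7641). These shares were not computed over all tested intervals of MUT on day 7, so how far they depart from that background is not known. For WT on day 7, p0-p1 was highest in 36.5% of all intervals, p2 in 26.5% and pMN in 37.0%. Where p2 lay in the middle, its position on a scale from 0 at p0-p1 to 1 at pMN had a median of 0.43 and an interquartile range of 0.27 to 0.61, and 61.0% of these intervals were nearer p0-p1. The replicate error of this position was not computed.

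**Figure D3:**
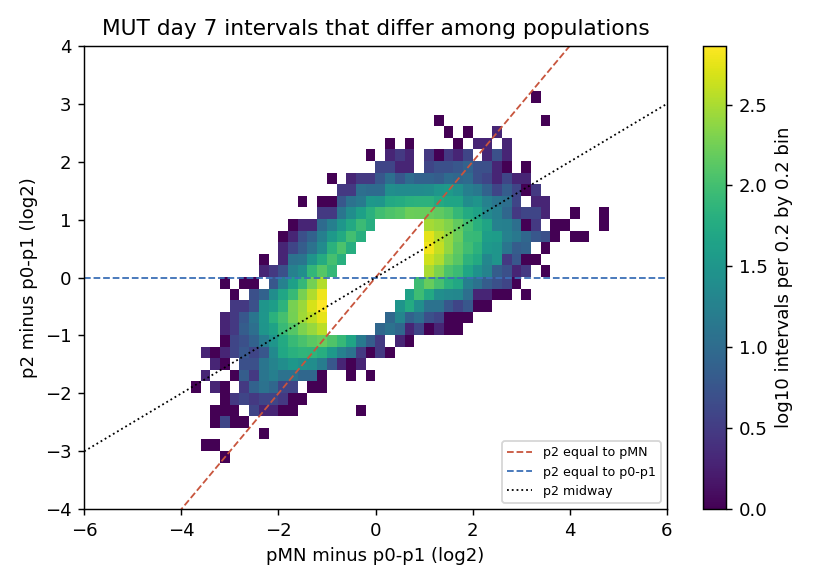
The 20148 intervals that differ among the MUT day 7 populations, by the difference of pMN from p0-p1 (x axis, log2) and of p2 from p0-p1 (y axis, log2); shading is the log10 number of intervals per bin. Most lie between the line where p2 equals p0-p1 and the line where p2 equals pMN, and the p2 position has a median of 0.43.

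A small set stood apart in p2. Among the intervals called by the F-test, p2 was higher than both other populations by at least 1 on the log2 scale in 439 (0.282% of those tested) and lower than both in 18 (0.0116%). All libraries of p2 were outside the range of the others in 427 of the 439 and in 18 of the 18, against 3.19% (above) and 1.91% (below) of all intervals. The same libraries picked these intervals, so the lack of overlap follows largely from the rule. With 439 against 18, intervals higher in p2 than in both others were the more numerous.

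Interval_53099 had 77.7, 111.5 and 132.4 normalised reads in p2, 14.4, 25.5 and 25.2 for p0-p1, and 17.9 and 22.6 in pMN. The 3 p2 libraries were high, and p0-p1 and pMN overlapped. By limma, p2 differed from p0-p1 by 2.07 (SE 0.28; adjusted p = 4.02e-07), and pMN differed from p2 by -2.13 (SE 0.32; adjusted p = 2.39e-06). Interval_12392 had 117.7, 104.3 and 134.6 in p2, 23.3, 19.1 and 14.4 for p0-p1, and 19.0 and 33.4 in pMN. Its p2 libraries were all above 100 and no other library reached 35. The changes by limma were 2.38 (SE 0.29; adjusted p = 2.86e-08) for p2 over p0-p1 and -2.02 (SE 0.32; adjusted p = 1.09e-05) for pMN against p2.

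Interval_70322 was low in p2, with 37.7, 16.5 and 35.2, against 143.0, 134.8 and 170.2 in p0-p1 and 137.2 and 91.9 in pMN. The p2 libraries lay below all others, and p0-p1 and pMN overlapped. By limma, p2 differed from p0-p1 by -2.21 (SE 0.28; adjusted p = 6.4e-08), and pMN from p2 by 1.82 (SE 0.31; adjusted p = 3.14e-05). Interval_78926 had 13.7, 17.6 and 20.3 in p2, 51.0, 52.0 and 53.9 for p0-p1, and 63.6 and 47.6 in pMN. Here too p2 alone was low. Its changes were smaller, -1.38 (SE 0.25; limma adjusted p = 7.54e-05) and 1.45 (SE 0.28; limma adjusted p = 0.000173). In WT of day 7 they were -0.49 (limma adjusted p = 0.249) and 0.64 (limma adjusted p = 0.154), neither called. In MUT of day 9 they were -0.41 and 0.52, also not called. The difference between MUT and WT in this interval was not called either.

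**Figure D4:**
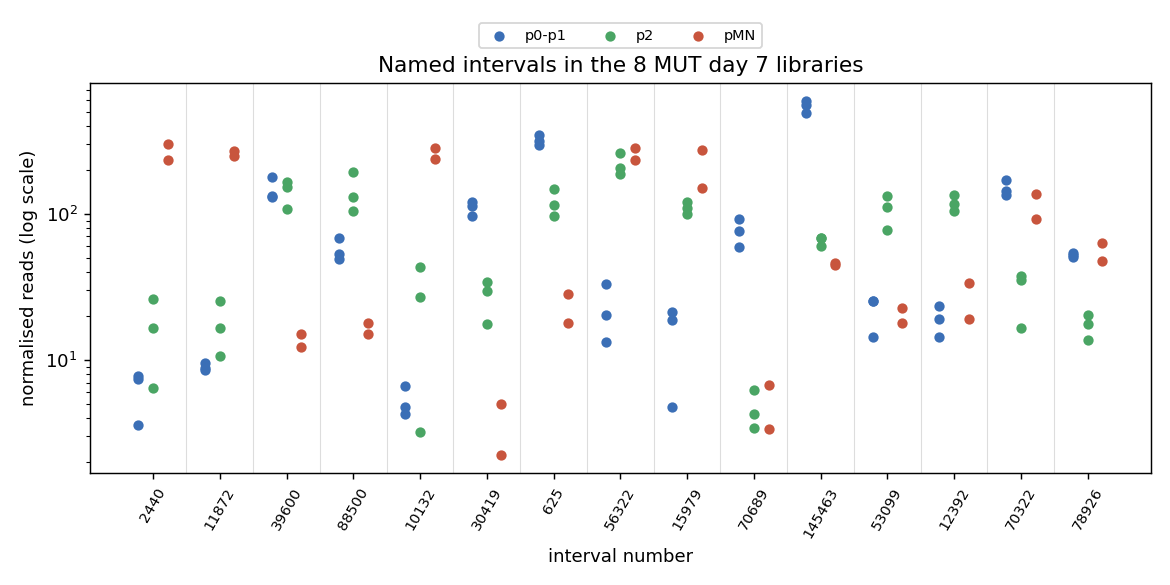
Normalised reads (log scale) of the 15 named intervals in the 8 MUT day 7 libraries; each point is 1 library, coloured by population. Interval_53099 and Interval_12392 are high in p2 alone, Interval_70322 and Interval_78926 are low in p2 alone, and Interval_30419 and Interval_625 fall from p0-p1 through p2 to pMN.

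The difference between populations was then compared with that of WT libraries of the same day, to ask whether the mutant domains differed from each other in another way. WT gave 15602 calls (10%) for pMN against p0-p1, 7782 higher and 7820 lower. It gave 7120 (4.57%) for pMN against p2, 3063 and 4057, and 4482 (2.88%) for p2 against p0-p1, 3045 and 1437. The test of the difference itself, limma's F-test of the interaction of genotype and population, called 0 of 155734 intervals (0%), with 3390 (2.18%) at an unadjusted p under 0.05. edgeR on the recovered reads also called 0, with 2655 (1.71%) at an unadjusted p under 0.05. With the replicate block limma called 0, with 8833 (5.67%) at an unadjusted p under 0.05. For the pairs in the order pMN and p2, pMN and p0-p1, p2 and p0-p1, the MUT and WT differences lay within 1 of each other on the log2 scale in 99.1%, 98.95% and 99.5% of intervals. The median standard error of the difference of differences was 0.41, 0.41 and 0.36. Shifts under 1 could thus not be called with this fit and number of libraries, and larger ones could be missed too. In the like test of day 9 against day 7, Interval_70322 had a range of 1.83 and was not called (limma adjusted p = 0.133). The median standard errors of that test were 0.43, 0.43 and 0.41 for the same pairs. The main fit does not model the pairing of same-numbered libraries. Its 2.18% at an unadjusted limma p under 0.05 is below the share expected at that limit without any difference. A missed threshold does not show that the genotypes are alike.

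Intervals chosen in MUT on day 7 were read in the WT libraries. The WT values did not enter the MUT differences, but they add to the estimate of spread that all groups share. Calls in MUT and in WT are thus not fully independent. Those higher in pMN than p0-p1 had a median difference of 1.22 in WT, had the same sign in 99.6%, and 69.4% were called there, against 5% of all intervals. For those lower in pMN than p0-p1 the median was -1.14, with 61.0% called against 5.02%. The lists of pMN against p2 had medians of 1.13 (59.5% called, against 1.97%) and -1.10 (58.1%, against 2.61%). The lists of p2 against p0-p1 had medians of 1.09 (59.4%, against 1.96%) and -0.92 (42.7%, against 0.923%). Of the 20148 intervals that differed among MUT populations, 13446 also differed among WT populations (18931 intervals, 12.2% of all), which is 66.7% of the MUT list and 71.0% of the WT list, and the highest population was the same in 95.6% of them.

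Named intervals were set beside WT. Interval_2440 was at 256.1 ± 35.5 in WT pMN (SD, n = 2) and 266.4 ± 46.0 in MUT pMN (n = 2). Interval_56322 was at 219.5 ± 46.4 in WT p2 (n = 3) and 219.0 ± 39.1 in MUT p2 (n = 3). Interval_145463 was at 351.6 ± 63.0 in WT p0-p1 (n = 3) and 547.7 ± 53.3 in MUT p0-p1 (n = 3), the level being lower in all 3 populations of WT. Over the 15 named intervals, the range across populations of the MUT minus WT change was 0.05 (Interval_56322) to 0.89 (Interval_78926) on the log2 scale, with an adjusted p of 1 by limma for each. The 171 intervals open in MUT pMN had WT means of 7.81 for p0-p1, 15.3 for p2 and 58.7 for pMN, and the 103 open in p0-p1 had 56.2, 23.7 and 8.90. The MUT means chose both lists, which favours less extreme values in WT.

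Higher and lower calls were counted on each day of the mutant series. For pMN against p2 the higher calls numbered 9533 (6.12%) on day 5, 3554 on day 7, 2078 (1.33%) on day 9 and 1018 (0.654%) on day 11. The lower calls of this pair numbered 1364 (0.876%), 3800, 6055 (3.89%) and 4459 (2.86%) on the same days. For pMN against p0-p1 there were 17083 (11%), 8751, 4625 (2.97%) and 7405 (4.75%) higher calls and 7165 (4.6%), 8727, 8678 (5.57%) and 11884 (7.63%) lower ones. For p2 against p0-p1 there were 3808 (2.45%), 2676, 3007 (1.93%) and 3978 (2.55%) higher calls and 1448 (0.93%), 1689, 2435 (1.56%) and 6152 (3.95%) lower ones. Any of the 3 populations differed in 25590 intervals (16.4%) on day 5, 17859 (11.5%) on day 9 and 23663 (15.2%) on day 11. In each of the 3 pairs the higher calls were the more numerous on day 5 and the lower calls on day 11; these splits were not recomputed under the other settings. Day 9 had 2 libraries per population, and counts also move with the number of libraries. The root mean square difference of pMN and p0-p1 was 0.74 on day 5, 0.57 on day 7, 0.51 on day 9 and 0.61 on day 11 (log2, replicate variance subtracted). For p2 and p0-p1 it was 0.34, 0.33, 0.35 and 0.46, and for pMN and p2 it was 0.47, 0.38, 0.41 and 0.35.

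The change of the population differences between days was tested by the interaction of day and population. Against day 5, 9486 intervals (6.09%) changed, and in 27.9% of these the range over populations was larger on day 7. Without pMN replicate 1 the count was 5903. The population that gained most relative to the others from day 5 to day 7 was p0-p1 for 5334 of them, p2 for 3111 and pMN for 1041. From day 7 to day 9, 146 intervals (0.0937%) changed, with 12462 at an unadjusted p under 0.05 and 320 by edgeR. This count rose to 2611 with the replicate block, and was 1 without pMN replicate 1, 22 without p0-p1 replicate 3, 23 without pMN replicate 2 and 74 without p2 replicate 2. From day 7 to day 11, 19200 (12.3%) changed, and the population with the largest relative gain was p0-p1 in 11435, pMN in 5991 and p2 in 1774.

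Intervals highest in pMN on day 7 had mostly been highest there on day 5. Of the 8705, pMN was highest in 91.6% on day 5, 73.7% on day 9 and 45.2% on day 11, against 34.5%, 35.8% and 38.5% of all intervals. By day 11 their median level had fallen by 0.99 in pMN on the log2 scale, and the median of the other populations had moved by 0.10. Intervals highest in p2 followed another course. Of the 3145, p2 was highest in 22.3% on day 5, near the 23.6% of all intervals, in 81.8% on day 9 and in 64.5% on day 11, against 30.5% and 24.8% of all. On day 5 their median level in p2 stood at -1.18 relative to day 7, against -0.19 in the other populations. Of the 8298 highest in p0-p1, that population was highest in 73.0%, 89.4% and 75.4%, against 41.9%, 33.7% and 36.7% of all. The day 7 values chose these lists, which lowers their share on any other day.

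The lists called on day 7 gave a like picture. Those higher in pMN than p0-p1 had medians of 1.39 on day 5, 0.77 on day 9 and 0.11 on day 11. Those lower had -0.82, -1.01 and -0.68. For pMN against p2 the higher list had 0.92, 0.87 and 0.29 and the lower list -0.41, -1.07 and -0.72, and for p2 against p0-p1 the medians were 0.70, 0.99 and 0.43 among the higher and -0.73, -0.90 and -0.79 among the lower. The pMN-higher lists were thus the ones nearest 0 on day 11. A list chosen by size in 1 set of libraries tends to be smaller in another, so lists chosen on other days were read back on day 7. The 17083 intervals higher in pMN than p0-p1 on day 5 had a median of 1.56 there and 0.72 on day 7. The 4625 of day 9 had 1.29 there and 1.27 on day 7, and the 7405 of day 11 had 1.25 there and 0.18 on day 7.

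**Figure D5:**
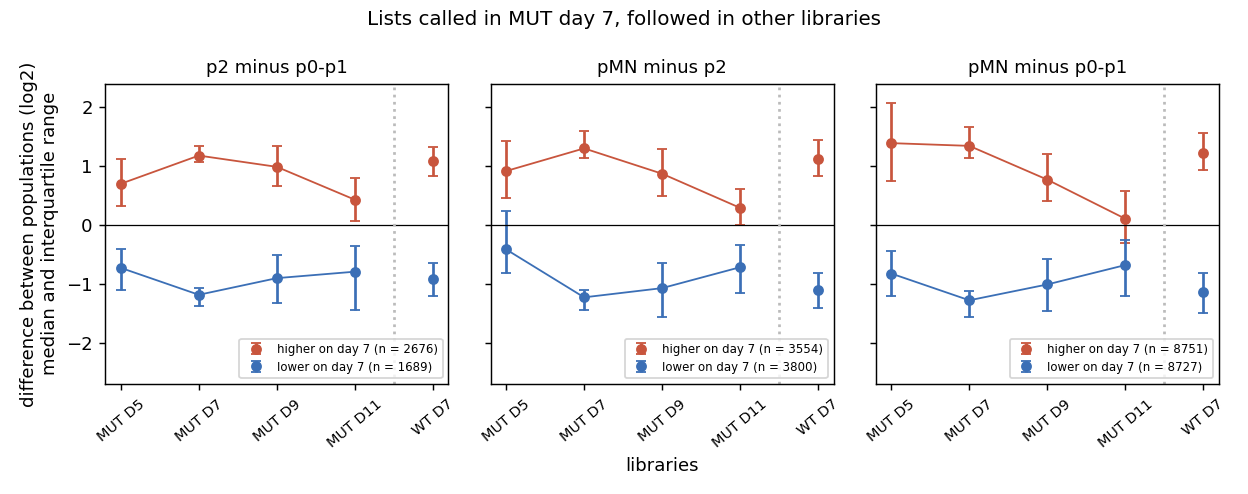
Intervals called higher or lower in each pair of MUT populations on day 7, followed in MUT of the other days and in WT day 7; points are the median log2 difference between populations and bars the interquartile range over intervals. The list higher in pMN than p0-p1 has medians of 1.39 on day 5, 0.77 on day 9 and 0.11 on day 11, and 1.22 in WT of day 7.

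Single intervals differed in when they opened. Interval_10132 in pMN was at 42.8 ± 7.02 on day 5 (SD, n = 3), 259.9 ± 33.2 on day 7 (n = 2), 325.4 ± 40.6 on day 9 (n = 2) and 400.0 ± 47.1 on day 11 (n = 3), with p2 at 107.5 ± 16.9 by day 11 (n = 3). Its level in pMN thus stood higher on each later day. Interval_2440 in pMN was at 154.4 ± 6.71 on day 5 (n = 3), 266.4 ± 46.0 on day 7 (n = 2), 127.9 ± 19.0 on day 9 (n = 2) and 16.4 ± 5.80 on day 11 (n = 3). It was at its highest on day 7. Interval_145463 in p0-p1 was at 1165 ± 63.3 on day 5 (n = 3), 547.7 ± 53.3 on day 7 (n = 3), 298.0 ± 1.26 on day 9 (n = 2) and 257.9 ± 36.9 on day 11 (n = 3), a level lower on each later day, while p0-p1 stayed the highest population. Interval_53099 in p2 was at 19.5 ± 5.70 on day 5 (n = 3), 107.2 ± 27.6 on day 7 (n = 3), 67.6 ± 17.6 on day 9 (n = 2) and 31.5 ± 13.0 on day 11 (n = 3), and was likewise highest on day 7. In pMN, Interval_70322 was at 114.5 ± 32.0 on day 7 (n = 2) and 13.3 ± 0.651 on day 11 (n = 3), at which time p2 was at 14.6 ± 5.05 (n = 3) and p0-p1 at 128.2 ± 23.4 (n = 3).

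The 171 intervals closed in p0-p1 and open in pMN on day 7 had a mean of 28.2 in pMN on day 5, 73.9 on day 7, 70.9 on day 9 and 33.9 on day 11. In p0-p1 the same intervals were at 5.85, 7.16, 13.3 and 16.2. The 103 open in p0-p1 were at 81.6, 65.0, 48.0 and 49.1 in p0-p1 and at 20.9, 7.51, 7.94 and 9.47 in pMN. The day 7 means of p0-p1 and pMN chose both lists, which favours less extreme values on other days. The p2 position, taken on each day over the intervals that differ on that day with p2 in the middle, had a median of 0.42 on day 5, 0.43 on day 7, 0.45 on day 9 and 0.61 on day 11. On day 11, 35.7% of such intervals were nearer p0-p1, against 61.0% on day 7.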

How the data were processed

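The values the authors deposited are a signal: reads in each numbered interval, scaled by a size factor of the library. The build was mm10 per the labels; alignment and counting tools are not given in the sources used here. Dividing each column by its step returned whole reads within 0.01 for 100% of values in 69 of 71 libraries; in the other two the step lay too near 1 to tell. On log2(value + 5), limma 3.58.1 (R 4.3.3, mean-variance trend) fitted 26 group means over 69 libraries with 43 residual degrees of freedom, without both pMN replicate 3 libraries of day 7. Testing needed 10 or more normalised reads in 2 or more libraries, which 155734 intervals had. Calls needed adjusted p under 0.05 (Benjamini-Hochberg) and 1 or more of log2 change, or of range for an F-test. Named intervals were the 2 highest and 2 lowest changes per pair, and for p2 against both others, among called intervals at or above the median level whose libraries did not overlap. Members, lists and rules were chosen with earlier results of these data known. Same-numbered libraries on day 7 deviated together (7 pairs, r = 0.18 to 0.33, mean 0.237), so the numbers pair the libraries by the data, not by a label. Deviations sum to 0 within a population, so the 7 values are not independent. For the same reason the mean of the other pairs, -0.118, is no separate contrast. edgeR 4.0.16 (quasi-likelihood, TMM) ran on recovered reads as an alternative. The tests were tried on simulated data. Figures used matplotlib 3.10.9. Sequences were not analysed here.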

Additional observations from a re-analysis of the deposited data

Results flagged for a closer look

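Differences among the mutant populations changed between day 7 and the other days by limma's test of the interaction: 9486 intervals against day 5, 146 for day 9 against day 7, and 19200 for day 11 against day 7. Without pMN replicate 1 the first of these was 5903 and the second 1, and with the replicate block the second was 2611. Of the 15 named intervals, 7 changed from day 5 to day 7. The range across populations of the log2 change was 1.95 for Interval_11872, 1.74 for Interval_39600, 2.52 for Interval_88500, 2.14 for Interval_10132, 2.35 for Interval_53099, 1.63 for Interval_12392 and 1.13 for Interval_78926. From day 7 to day 11, 10 named intervals changed. Their ranges were 3.09 for Interval_2440, 2.19 for Interval_11872, 1.73 for Interval_39600, 2.17 for Interval_30419, 1.78 for Interval_625 and 2.61 for Interval_15979. They were 1.3 for Interval_145463, 2.23 for Interval_12392, 2.46 for Interval_70322 and 1.5 for Interval_78926. The limma adjusted p from day 5 to day 7 was 1.11e-06 for Interval_88500 and 0.043 for Interval_78926, and from day 7 to day 11 it was 1.47e-06 for Interval_15979 and 0.0124 for Interval_145463. Named intervals were chosen for large differences on day 7, which favours a change toward smaller ones on other days.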

How the results depend on the processing

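Over the 8 counts and their alternatives, 143 values stayed within 1.5 times the main count and 25 did not; all 0 counts for MUT against WT on day 7 stayed 0. A pseudocount of 20 gave 2736 calls for pMN against p2, 7617 for pMN against p0-p1, 1137 for p2 against p0-p1, 8554 among the 3 populations and 789 for day 9 against day 7. A pseudocount of 1 gave 33 for day 9 against day 7. A minimum mean of 30, which tested fewer intervals, gave 3669, 9168, 2181 and 10418 in that order, 5508 for day 7 against day 5 and 10996 for day 11 against day 7. Day 9 against day 7 was 416 in a fit of only the groups compared, 597 with library quality weights, 2611 with the replicate block, 320 with edgeR, 267 with both pMN replicate 3 libraries kept as labelled, and 394 without 2 WT p2 libraries (chosen after seeing the data). Quality weights gave 30102 for day 11 against day 7. The cause of these differences was not tested. The replicate block kept the other counts within 1.5 times. Leaving out each library gave 4296 to 8094 for pMN against p2, 15280 to 18400 for pMN against p0-p1, 3770 to 5190 for p2 against p0-p1, 16640 to 21240 among the 3 populations, 5903 to 10116 for day 7 against day 5, 1 to 119 for day 9 against day 7, and 14229 to 19653 for day 11 against day 7; 4296, 5903 and 1 came without pMN replicate 1. Of 416 values for named intervals, 415 kept their call; Interval_78926 had -0.96 for p2 against p0-p1 with a pseudocount of 20, under the size limit. The 2 libraries of pMN limit the precision of both pMN comparisons.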

Other observations

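Called intervals lay beside each other in the numbering more often than the called share. After an interval called higher in pMN than p0-p1, the next number was called in the same direction in 11.4%, against 5.62% of all intervals, and after one called lower in 9.57%, against 5.6%. For pMN against p2 the shares were 5.71% (2.28% of all) and 4.61% (2.44%), and for p2 against p0-p1 4.93% (1.72%) and 2.49% (1.08%). The table gives no distances, so it is not known how near such neighbours lie on the genome.

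The longest run of consecutive calls was 10 intervals, Interval_15096 to Interval_15105, all higher in pMN than p0-p1 on day 7, a run chosen with its values in view. Its summed normalised reads on day 7 were 414.5, 473.5 and 535.7 for p0-p1, 629.8, 706.1 and 865.1 for p2, and 1191.4 and 1131.1 in pMN. The populations did not overlap. On day 5 pMN was at 1097.7 to 1741.2 and p0-p1 at 251.0 to 266.9, and on day 11 pMN was at 757.2 to 872.8 and p0-p1 at 1077.6 to 1720.1, so the order of these populations on day 11 was the reverse of that on days 5 and 7. A second run, Interval_20803 to Interval_20806, was the first in number of the runs of 4, the longest length among intervals higher in pMN than p2. It summed to 94.2 to 103.1 in p0-p1, 105.2 to 135.2 in p2, and 484.1 and 645.7 in pMN on day 7. On day 5 pMN was at 123.0 to 159.1 and on day 9 at 632.3 and 753.9, the high level being present on days 7 and 9, and at 210.6 to 243.5 on day 11.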
